A study of Mus musculus with 9 samples.

Results

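Expressed intergenic long noncoding RNA genes (lincRNA genes) were followed across 9 RNA-seq libraries of HT22 cells, an immortalized line derived from mouse hippocampal neurons. They were taken as all genes that the authors' annotation types as lincRNA and whose FPKM (fragments counted for a gene, divided by its length in kilobases and scaled by the fragments of its library) averaged at least 1 over the 9 libraries. The choice left 155 of 5559 lincRNA genes, out of 54532 genes listed, and 3607 lincRNA genes were at 0 in every library. Because 6 of the 9 libraries come from cells deprived of oxygen and glucose, a mean over all of them lets in a gene that is high after deprivation more readily than one that is high in untreated cells. The cells fall into 3 groups of 3 libraries. OGE cells, wild type like all the others, were held for 2 h in oxygen-glucose deprivation (OGD) and then re-oxygenated for 24 h with extracellular vesicles from mesenchymal stem cells made from human induced pluripotent stem cells (hiPS-MSC-EVs). OGP cells had the same 2 h of OGD and 24 h of reoxygenation with PBS, and control cells had neither OGD nor vesicles. The sample labels give the standard medium after OGD. The methods instead list media with exosome-free serum, without serum or with vesicles, and do not say which the OGP cells had. A part of serum in OGE against OGP therefore cannot be told apart from that of the vesicles. By the methods, the medium during OGD also lacked serum. In both comparisons with control, a part of serum therefore cannot be told apart from that of oxygen and glucose. The libraries are called biological replicates in the study's text, without mention of separate cultures, and each p-value is set against the spread of these libraries only. The comparisons ask how the lincRNA genes differed after OGD (OGP against control), what came with the vesicles (OGE against OGP), and what remained different from untreated cells (OGE against control).

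A lincRNA is transcribed like an mRNA, often spliced and polyadenylated, but has no long open reading frame. Some act as scaffolds of nuclear bodies, as does Neat1, the RNA on which paraspeckles assemble, and some are the precursors from which small RNAs are cut, as is Mir17hg, the host of the miR-17-92 cluster. Others act on the gene next to them, or bind proteins and miRNAs in the cytoplasm, as Norad does with Pumilio proteins, and for most no role is known. Neat1 and several host genes are known to respond to stress and hypoxia in many cell types.

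The reads in genes numbered 15026700 to 19476806 per library, of which the 155 genes held 33281 to 44937. Of 10 neuron markers 3 averaged at least 0.5 FPKM (Tubb3, Dlg4 and Map2), and Rbfox3, Syp, Snap25, Grin1 and Nefl were at or near 0 in every group, so the neuronal label rests on few markers. The 10 summed to 17.8 to 22.0 FPKM in OGE, 16.6 to 17.6 in OGP and 12.6 to 16.3 in control. Of 5 mesenchymal markers 4 passed the same level, led by Col1a1 and Vim, and the level of the 5 summed to 784 to 905 FPKM in OGE, 914 to 990 in OGP and 1135 to 1486 in control. Of 4 astrocyte markers 1 (Slc1a3, at 2.84 FPKM in OGE, 4.74 in OGP and 9.78 in control) and of 4 microglia markers 1 (Tmem119, at 8.90 FPKM in OGE, 17.1 in OGP and 14.4 in control) averaged at least 0.5 FPKM, and of 4 oligodendrocyte markers 0 did, while Aqp4, Cx3cr1 and Olig2, which define these types, were at or near 0. Whether the differences in markers have a part in the results below was not tested. In bulk RNA, fewer cells of a kind and less RNA per cell cannot be told apart.

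Of the 155 genes, 65 averaged 1 to 2 FPKM, 52 averaged 2 to 5, 18 averaged 5 to 10 and 20 averaged 10 or more. Their median was 2.44 FPKM, against 9.68 FPKM for the 10352 protein-coding genes that passed the same limit, and their median length was 1486 bases, against 4457. A set of 154 was detected in every library, the exception being Gm12415 with 0 reads in control replicate 3. All 3 group means reached 1 FPKM in 128 of them. Just above the limit lay 4632404H12Rik, Gdap10 and Gm26724, at 1.00 FPKM each, and just below it A430046D13Rik at 0.998, B230217O12Rik at 0.996 and Gm26792 at 0.988. B230217O12Rik shows how the limit works, with 0.706 to 1.26 FPKM in OGE, 1.20 to 1.54 in OGP and 0.314 to 0.718 in control.

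By the coordinates of the files (mm10), the median distance to the nearest protein-coding gene was 5747 bases. A protein-coding gene lay within 1 kb of 52 of the 155 and overlapped 27 of them, so that the type lincRNA is not everywhere intergenic here, and 24 had the start of a coding gene on the opposite strand within 1 kb. No source says that strand was kept during library preparation, and reads of overlapping genes cannot be told apart. GENCODE M21 types 153 of the 155 as lincRNA. RefSeq lists Gm38399 as a synonym of Nav1 and D930016D06Rik as a synonym of Thoc2l, and whether any of the 155 encodes a protein was not tested. A single exon made up 22 of the 155 genes, and 51 had 2. For 6 of them another gene holds a near-identical transcript with which reads could be shared: Gm10076 is a copy of the ribosomal protein gene Rpl41, 2900097C17Rik and Gm7292 match each other, Gm6712 matches Gm5165, Gm47467 matches Zfp825 and Gm49207 matches Ahsa1. None of the 6 passed the test in any comparison, Gm10076 with 31.1, 27.1 and 45.0 FPKM in OGE, 47.9, 25.9 and 52.8 FPKM in OGP and 53.2, 82.0 and 32.2 FPKM in control.

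Small RNAs lie inside several of these genes. In RefSeq (GRCm38.p6), 12 miRNA hairpins lie on the same strand within 7 of them: Mir17hg, AL805899.1, Snhg10, Snhg20, 2900076A07Rik, 6720427I07Rik and C130071C03Rik. To show which seeds 2 of the host genes that passed the test below would carry, 1 arm of each hairpin of Mir17hg (chr14:115042879-115046727, plus strand) and of the miR-31 inside AL805899.1 (chr4:88909855-88938521, minus strand) is printed, with the seed, bases 2 to 8, in capitals. The other arms, and the miRNA of Snhg10, which passed as well, are not shown.
miR-17-5p: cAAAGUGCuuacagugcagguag
miR-20a-5p: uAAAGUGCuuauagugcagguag
miR-18a-5p: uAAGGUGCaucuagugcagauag
miR-19a-3p: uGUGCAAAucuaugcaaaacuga
miR-19b-3p: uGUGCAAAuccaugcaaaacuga
miR-92a-3p: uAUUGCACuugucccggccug
miR-31-5p: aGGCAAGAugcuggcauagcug
The seeds of miR-17-5p and miR-20a-5p are the same, as are those of miR-19a-3p and miR-19b-3p. That of miR-18a-5p differs from the seed of miR-17-5p, and miR-92a-3p and miR-31-5p share theirs with no other in the list. The libraries measured the host transcripts and not the mature miRNAs.

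Promoters from RefSeq (GRCm38.p6, 250 bases before and 50 after the start) could be matched to within 1 kb of the start in the files for 69 of the 155 genes. They were searched on both strands for TGACTCA (bound by AP-1), TGACGTCA (CREB), ACGTG (the core of the HIF site), CACGTG (an E-box, which contains ACGTG), TTCNNNGAA (STAT), the interferon-stimulated response element (ISRE, bound by interferon-regulatory factors) and the CArG box (SRF). Promoters of genes that moved together are shown, chosen because they hold matches, which are in capitals: Gm12415 and Gm12648, which were higher in OGP and OGE cells than in control cells, and Ptgs2os2 and Wincr1, which were higher in OGE cells than in either other group.
Gm12415 promoter: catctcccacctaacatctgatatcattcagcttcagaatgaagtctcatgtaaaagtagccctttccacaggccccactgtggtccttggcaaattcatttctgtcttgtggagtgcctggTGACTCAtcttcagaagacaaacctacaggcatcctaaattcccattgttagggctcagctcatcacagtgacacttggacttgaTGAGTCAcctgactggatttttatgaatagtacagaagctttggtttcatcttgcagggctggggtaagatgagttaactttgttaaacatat
Gm12648 promoter: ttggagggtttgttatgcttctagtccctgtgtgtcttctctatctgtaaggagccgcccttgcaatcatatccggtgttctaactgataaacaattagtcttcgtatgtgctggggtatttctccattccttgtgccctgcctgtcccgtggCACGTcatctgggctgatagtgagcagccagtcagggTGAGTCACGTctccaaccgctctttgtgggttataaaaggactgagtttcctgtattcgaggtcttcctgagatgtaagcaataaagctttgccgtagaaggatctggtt
Ptgs2os2 promoter: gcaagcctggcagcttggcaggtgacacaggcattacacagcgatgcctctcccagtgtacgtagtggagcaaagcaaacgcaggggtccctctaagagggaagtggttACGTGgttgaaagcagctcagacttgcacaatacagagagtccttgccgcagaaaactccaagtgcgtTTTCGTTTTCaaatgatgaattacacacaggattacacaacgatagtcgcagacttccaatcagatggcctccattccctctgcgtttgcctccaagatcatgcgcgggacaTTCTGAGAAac
Wincr1 promoter: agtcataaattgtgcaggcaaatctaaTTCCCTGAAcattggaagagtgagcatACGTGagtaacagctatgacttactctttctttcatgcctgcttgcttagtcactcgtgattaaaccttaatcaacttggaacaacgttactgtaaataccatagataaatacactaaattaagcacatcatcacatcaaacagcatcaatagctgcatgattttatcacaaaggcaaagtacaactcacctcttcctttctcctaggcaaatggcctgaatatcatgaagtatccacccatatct
In the Gm12415 promoter (chr4:84741225-84741524, plus strand) the capitals are 2 AP-1 matches, and in that of Gm12648 (chr4:94425539-94425838, minus strand) an AP-1 match that overlaps an ACGTG match by its reverse complement, and another ACGTG match upstream. In the Ptgs2os2 promoter (chr1:150164899-150165198, minus strand) they are an ACGTG, an ISRE and a STAT match, and in that of Wincr1 (chr4:89050057-89050356, plus strand) a STAT and an ACGTG match. TGACTCA lay in 8 of the 69 promoters and in 3 of the 16 whose gene was higher in OGP than in control, against 5.20% of all 32851 promoters. ACGTG lay in 17 of the 69 and in 2 of those 16, against 19.6% of all promoters. TTCNNNGAA lay in 5 of the 69, against 8.30%, CACGTG in 4, against 7.15%, the ISRE in 2, against 3.44%, TGACGTCA in 2, against 1.79%, and the CArG box in 0, against 1.63%. The promoters of 4930461G14Rik, Gm6634, Gm40723 and Platr22, which moved like Gm12415 and Gm12648, hold none of these motifs. Of 5 promoters whose gene was higher in OGE than in OGP, 2 held TTCNNNGAA and 2 ACGTG, those of Ptgs2os2 and Wincr1. That of Gm44507 held TGACTCA alone, and those of Gm13470 and E230014E18Rik held none. These are counts of letters in a window, and binding was not measured.

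The 155 genes together took 0.259%, 0.234% and 0.291% of the reads in genes in OGE replicates 1 to 3, 0.229%, 0.224% and 0.231% in OGP and 0.223%, 0.195% and 0.208% in control. No OGE library lay as low as an OGP library, and no OGP library as low as a control library. The means were 0.262% ± 0.0287 in OGE, 0.228% ± 0.00368 in OGP and 0.209% ± 0.0140 in control (SD, n = 3 each). Each pair of groups gave p = 0.1 in a two-sided exact permutation test, the smallest value that 3 against 3 libraries allow. The difference of 0.0335 percentage points between OGE and OGP was 0.0185 without OGE replicate 3, and that of 0.0193 between OGP and control was 0.0124 without control replicate 2. Malat1 held 21.3% of the reads of the 155 genes over the 9 libraries, 2900097C17Rik 9.21% and Neat1 9.06%. Without these 3 the share was 0.155% in OGE, 0.145% in OGP and 0.122% in control, and the exact p for OGE against OGP was 0.2.

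**Figure D1:**
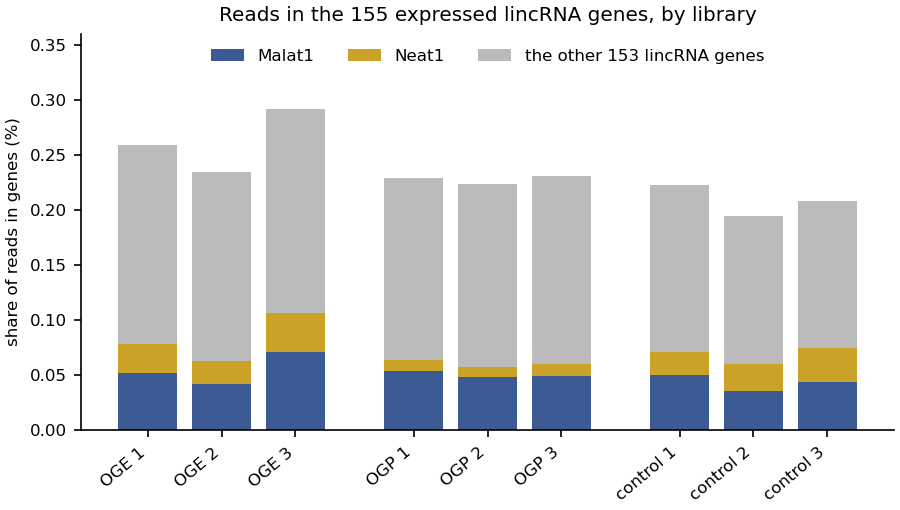
Share of all reads in genes (vertical axis, percent) that fell in the 155 expressed lincRNA genes, in each of the 9 libraries (horizontal axis), with Malat1, Neat1 and the other 153 genes stacked. The whole bars reach 0.234% to 0.291% in OGE, 0.224% to 0.231% in OGP and 0.195% to 0.223% in control, and the Neat1 segment is thinnest in the OGP libraries.

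More lincRNA genes were higher than lower in OGP cells than in control cells. By limma, fitted to the 13245 genes whose mean reached 0.5 FPKM, 35 of the 155 were differentially expressed genes (DEGs: Benjamini-Hochberg adjusted p no higher than 0.05 and a fold no lower than 1.5), 33 higher and 2 lower in OGP. Over all genes tested, 12.1% were DEGs, 6.38% were higher and 5.74% lower, and over protein-coding genes 5.58% and 6.43%, whereas 21.3% of the lincRNA genes were higher and 1.29% lower. Their median log2 fold change was 0.22, beside 0.01 over all genes, and 107 of the 155 lay above 0. The rule leans the same way, and 8 of the 33 higher genes had a group mean under 1 FPKM. The count was therefore also taken over the 141 lincRNA genes that average at least 1 FPKM in the control libraries alone. This set leans to genes high in control, was chosen after the values were seen, and had 25 higher and 5 lower in OGP. Of the 120 antisense genes that averaged 1 FPKM or more, 15.0% were higher and 2.5% lower, with a median log2 fold change of 0.26. Of these 120, 72.5% lay above 0, beside 69.0% of the 155 lincRNA genes. The groups did not overlap in 60 of the 155 genes, 49 of them with OGP above and 11 below, against 20.3% and 22.6% of all genes tested.

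**Figure D2:**
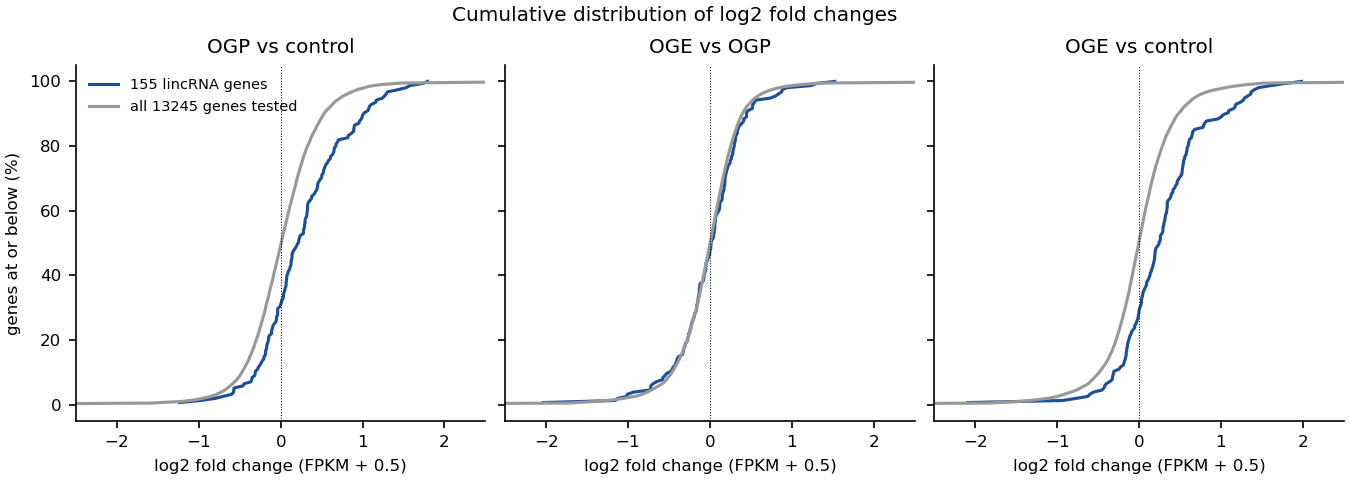
Cumulative share of genes (vertical axis, percent) at or below a given log2 fold change of FPKM + 0.5 (horizontal axis), for the 155 lincRNA genes and for all 13245 genes tested, in 3 panels, 1 per comparison. The lincRNA curve lies to the right of the other in OGP against control (medians 0.22 and 0.01) and OGE against control (medians 0.25 and 0.00), and the curves lie on each other in OGE against OGP.

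Neat1 (ENSMUSG00000092274, chr19:5824708-5845478, minus strand) was the lincRNA gene with the largest fall after OGD. It had 12.6, 10.0 and 16.2 FPKM in OGE replicates 1 to 3, 5.04, 4.41 and 5.15 FPKM in OGP and 10.2, 11.8 and 14.9 FPKM in control. All 3 OGP libraries lay below all 6 others, and the OGE and control libraries overlapped. The log2 fold change was -1.24 (SE 0.18, adjusted p = 0.00115, limma) in OGP against control, 1.30 (adjusted p = 0.00120) in OGE against OGP and 0.06 (adjusted p = 0.835) in OGE against control. Malat1, an abundant RNA of nuclear speckles that lies 22036 bases from Neat1 on the same strand, had 72.1, 59.0 and 99.1 FPKM in OGE, 75.6, 69.3 and 71.0 FPKM in OGP and 71.0, 52.1 and 62.0 FPKM in control. Its groups overlapped in every comparison and it passed none (log2 fold changes of 0.06 in OGE against OGP and 0.23 in OGP against control). Malat1 RNA ends in a triple helix in place of a usual poly(A) tail, while the libraries were selected with poly-T beads, and what this does to its level was not tested. How the selection acted on Neat1 was not tested either. Its FPKM is a single value over a gene length of 20771 bases, so transcripts of Neat1 are not told apart, and paraspeckles were not measured. The other gene lower in OGP was 2700033N17Rik, at 1.96, 1.02 and 1.70 FPKM in OGP and 2.46, 3.43 and 2.54 FPKM in control (log2 fold change -0.70, adjusted p = 0.0295, limma). The gene lies 379 bases from Meis2, a homeobox factor gene, which had a log2 fold change of -0.42 in the same comparison and was not a DEG. Without control replicate 2 or 3, or OGP replicate 2 or 3, 2700033N17Rik was no longer a DEG.

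Among the genes that rose in OGP, Gm13073 and Gm29630 had the largest log2 fold changes with the pseudocount of 0.5. Gm29630 (ENSMUSG00000101549, chr1:132274716-132280411, minus strand) had 31.5, 27.8 and 33.9 FPKM in OGE, 68.2, 67.2 and 73.4 FPKM in OGP and 23.8, 15.6 and 23.5 FPKM in control. The OGP libraries lay above all others and the OGE libraries above the control libraries. Its log2 fold change was 1.73 (SE 0.15, adjusted p = 9.82e-05, limma) in OGP against control and -1.15 (adjusted p = 0.00100) in OGE against OGP. Gm13073 (chr4:149780024-149780714) had 4.57, 4.77 and 4.30 FPKM in OGP and 0.471, 0.970 and 1.66 FPKM in control, which is 1.79 on the log2 scale (SE 0.28, adjusted p = 0.00175, limma). Next in size were 2010300F17Rik (log2 fold change 1.58), Gm40723 (1.53), Gm12415 (1.43), Gm20005 (1.31), Platr22 (1.29), Mir17hg (1.27), Gm12648 (1.24) and Gm19705 (1.17). Gm12415, Gm40723 and 2010300F17Rik are low genes, with control levels of 0 to 0.230, 0.190 to 0.268 and 0.166 to 0.323 FPKM. They met the limit of 1 FPKM only through the libraries after OGD, so the choice itself favours a rise in them. The pseudocount understates their fold. With a pseudocount of 0.1 their log2 fold changes were 2.59, 2.40 and 2.40, above 2.18 for Gm13073 and 1.75 for Gm29630. Another 11 genes were DEGs in OGP against control and in no other comparison: 2010320M18Rik, 3110039M20Rik, 8430423G03Rik, Epb41l4aos, Gm15706, Gm21123, Gm26765, Gm39090, Gm47381, Gm7967 and Snhg10. Of these, 2010320M18Rik, Gm21123, Gm39090 and Gm7967 kept the call whichever library was left out. The most abundant, 3110039M20Rik, had 14.6, 22.3 and 26.2 FPKM in OGP and 15.5, 12.9 and 10.5 FPKM in control, with 1 OGP library inside the control range (log2 fold change 0.65, adjusted p = 0.0400, limma). Platr22 and Gm19705 lie 5407 bases apart on the same strand of chromosome 1.

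Mir17hg carries the miRNAs printed above other than miR-31, a cluster known to promote proliferation and survival in many tissues. It had 4.11, 3.91 and 3.77 FPKM in OGE, 3.66, 3.30 and 4.36 FPKM in OGP and 1.64, 1.10 and 1.11 FPKM in control. All 6 libraries after OGD lay above the 3 control libraries, and OGE and OGP overlapped. The log2 fold change was 1.27 (SE 0.14, adjusted p = 0.000272, limma) in OGP against control and 1.33 (adjusted p = 0.000174) in OGE against control. From a list of miRNA hosts, 5 genes were tested: Mir17hg, Mir22hg, Mir155hg, Dleu2 and 3110039I08Rik. The first 3 were higher and 0 lower in OGP than in control, beside 6.38% and 5.74% of all genes. Their median log2 fold change over the 5 was 1.07, beside 0.01 over all genes. Mir155hg is a low gene, at 0.846, 0.980 and 1.115 FPKM in OGP and 0.360, 0.165 and 0.113 FPKM in control. In the files a miRNA gene overlaps 10 of the 155 genes, by any length and on either strand. Of these 10, 3 (Mir17hg, Snhg10 and Gm26532) were higher in OGP, a count near the 21.3% of all 155 genes. RefSeq places no hairpin inside Gm26532. Snhg10 was no longer a DEG without control replicate 2 or 3, without OGP replicate 2 or 3, or without OGE replicate 1.

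Hosts of snoRNAs, whose introns hold the small RNAs that guide ribosomal RNA modification, lay above the median of all genes. Of 15 tested from a list, whatever type the files give them, 8 were higher and 0 lower in OGP than in control, beside 6.38% and 5.74% of all genes, with a median log2 fold change of 0.63 beside 0.01 over all genes. Mir22hg, a miRNA host by its symbol, counts here and among the miRNA hosts. It is among the 8, with the largest log2 fold change of the 15 (1.12), and whether it holds a snoRNA was not checked. Of the 5 on the list that are typed lincRNA, 1 passed, Epb41l4aos, at 13.2, 12.5 and 14.3 FPKM in OGP and 5.59, 9.18 and 10.0 FPKM in control (log2 fold change 0.69, adjusted p = 0.0202, limma). Without control replicate 1 or without OGP replicate 3 that call was lost. Snhg6, Snhg12, Snhg18 and Snhg20 had log2 fold changes of 0.50, 0.45, 0.33 and 0.33 and did not pass, Snhg6 for its fold alone (adjusted p = 0.00533, limma). The 7 others that passed are typed otherwise and include Gas5 (0.85), Snhg1 (0.63) and Snhg15 (0.95). In OGE against OGP 0 of the 15 passed in either direction, and in OGE against control 6 were higher and 0 lower, with a median of 0.48. Snhg10, a snoRNA host by its symbol, was not on the list and was a DEG in OGP against control (log2 fold change 0.61, adjusted p = 0.0360, limma). In the files a snoRNA gene overlaps 7 of the 155 genes. Of these 7, 2 were higher and 0 lower in OGP than in control, beside 21.3% and 1.29% of all 155.

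Other studied long noncoding RNAs, among which Neat1, Ptgs2os2 and Wincr1 were not listed, mostly missed the thresholds in OGP against control. Of 12 tested from a list of studied long noncoding RNAs, 2 were higher in OGP than in control (Dancr, not typed lincRNA, and Gm14005, described further on) and 0 lower, beside 6.38% and 5.74% of all genes. Among its members here, 2900097C17Rik, which RefSeq names Norad, had 44.9, 47.8 and 47.9 FPKM in OGE, 48.0, 43.0 and 44.8 FPKM in OGP and 37.2, 37.2 and 36.3 FPKM in control. All 6 libraries after OGD were above the 3 control libraries, and the log2 fold change of 0.29 in OGP against control (SE 0.07, adjusted p = 0.0126, limma) was short of the fold threshold. Pvt1, which lies next to Myc, Lockd, which lies next to the cell-cycle inhibitor gene Cdkn1b, and 1700020I14Rik, which RefSeq names Oip5os1 (Cyrano), had log2 fold changes of -0.10, -0.27 and -0.24, and Bvht, a gene of heart development in mouse, 0.57. None of 9 imprinted long noncoding RNA genes reached the level for testing, and of 5 X-linked dosage genes Firre and Ftx did, neither of them among the 155 or a DEG in OGP against control.

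OGE against OGP gave fewer calls and no shift of the whole. The DEGs numbered 17 of the 155, 7 of them higher (4.52%) and 10 lower (6.45%) in OGE, beside 8.12% of all genes tested, 3.39% higher and 4.73% lower, and the median log2 fold change was 0.01 beside 0.00. The groups did not overlap in 62 genes, 32 with OGE above and 30 below, against 23.3% and 22.0% of all genes. Without OGP replicate 3 the number of DEGs was 11.

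Gm37800 (ENSMUSG00000103308, chr1:184610280-184629473, minus strand), named only by its gene model, had the largest fall with the vesicles. It had 0.676, 0.653 and 0.389 FPKM in OGE, 3.30, 4.78 and 3.64 FPKM in OGP and 3.63, 4.09 and 4.43 FPKM in control. The OGE libraries lay below all others and the OGP and control libraries overlapped. The log2 fold change was -2.04 (SE 0.16, adjusted p = 4.18e-05, limma) in OGE against OGP and -2.09 (adjusted p = 2.55e-05) in OGE against control. Gm17501 (chr3:145650312-145677580, plus strand) likewise was at 3.26, 3.19 and 3.33 FPKM in OGE, below 6.54, 9.03 and 7.79 FPKM in OGP and 5.94, 5.78 and 6.01 FPKM in control. Its log2 fold change was -1.13 (SE 0.11, adjusted p = 0.000120, limma) in OGE against OGP and -0.77 (adjusted p = 0.000851) in OGE against control. 1190001M18Rik was the only other gene that was a DEG with lower levels in OGE against both groups, at 2.38, 3.07 and 2.08 FPKM in OGE, 4.37, 5.62 and 6.82 FPKM in OGP and 6.22, 4.08 and 5.55 FPKM in control (log2 fold change -1.01 in OGE against OGP, adjusted p = 0.00657, limma).

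A set of 6 genes was higher in OGP than in control and lower in OGE than in OGP: D5Ertd605e, Gm13056, Gm13203, Gm19705, Gm26532 and Gm29630. These 2 comparisons share the OGP libraries, so a high OGP value enters both. D5Ertd605e (ENSMUSG00000106820, chr5:147418601-147423044, plus strand) had 9.85, 9.94 and 9.90 FPKM in OGE, 19.5, 20.8 and 20.9 FPKM in OGP and 10.3, 10.7 and 11.2 FPKM in control. Its 3 OGP libraries stood apart from all others, and every OGE library lay below every control library. The log2 fold change was 0.90 (SE 0.07, adjusted p = 4.04e-05, limma) in OGP against control and -1.01 (adjusted p = 1.56e-05) in OGE against OGP. In OGE against control none of the 6 was a DEG, with log2 fold changes of -0.11 for D5Ertd605e and 0.58 for Gm29630. Gm29630 was just short of the fold threshold (1.49-fold, adjusted p = 0.0232, limma) and was a DEG there in 9 of 22 alternatives. Neat1 was the only gene with the opposite pattern of calls, lower in OGP than in control and higher in OGE than in OGP. Gm16046 was lower in OGE than in OGP only, at 0.534, 0.665 and 1.12 FPKM in OGE and 1.62, 1.96 and 1.22 FPKM in OGP (log2 fold change -0.73, adjusted p = 0.0457, limma). The OGE against OGP calls of Gm13056, Gm13203 and Gm26532 were each lost without OGP replicate 3, among others, and that of Gm16046 without any 1 of 6 libraries.

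Ptgs2os2, Wincr1 and Gm44507 were higher in OGE than in both other groups. Ptgs2os2 (ENSMUSG00000097754, chr1:150159043-150164948, minus strand), also known as lincRNA-Cox2 and a regulator of immune genes in mouse macrophages, had 9.89, 11.1 and 9.79 FPKM in OGE, 4.54, 5.84 and 5.74 FPKM in OGP and 6.30, 3.75 and 3.36 FPKM in control. The OGE libraries lay above all others, and OGP and control overlapped. The log2 fold change was 0.88 (SE 0.19, adjusted p = 0.0133, limma) in OGE against OGP and 1.16 (adjusted p = 0.00262) in OGE against control. Its nearest protein-coding gene Ptgs2, which encodes cyclooxygenase 2 and lies 50816 bases away, was at 74.5, 77.4 and 61.9 FPKM in OGE, 59.8, 65.5 and 64.8 FPKM in OGP and 76.1, 60.3 and 52.6 FPKM in control, with overlapping groups and a log2 fold change of 0.16 in OGE against OGP (adjusted p = 0.445, limma). Wincr1 (chr4:89050308-89084614, plus strand), named as a Wnt-induced noncoding RNA, had 14.7, 10.7 and 14.5 FPKM in OGE, 5.77, 6.10 and 8.24 FPKM in OGP and 6.40, 5.27 and 4.38 FPKM in control. Its OGE libraries were above all others, by 0.94 on the log2 scale (SE 0.18, adjusted p = 0.00627, limma) in OGE against OGP. Gm44507 had 9.32, 7.92 and 8.45 FPKM in OGE, 7.07, 5.16 and 3.22 FPKM in OGP and 3.17, 2.75 and 3.76 FPKM in control (log2 fold change 0.74 in OGE against OGP, adjusted p = 0.0455, limma), and this call was lost without any 1 of 7 libraries. The low genes E230014E18Rik and Gm13470, and Gm38399, with a mean of 3.53 FPKM, were DEGs in OGE against OGP and in no other comparison. They were higher in OGE, with log2 fold changes of 0.88, 1.23 and 1.52. Each of these calls was lost without OGP replicate 3, in which Gm13470 had 0.146 FPKM and Gm38399 0.859 FPKM.

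**Figure D3:**
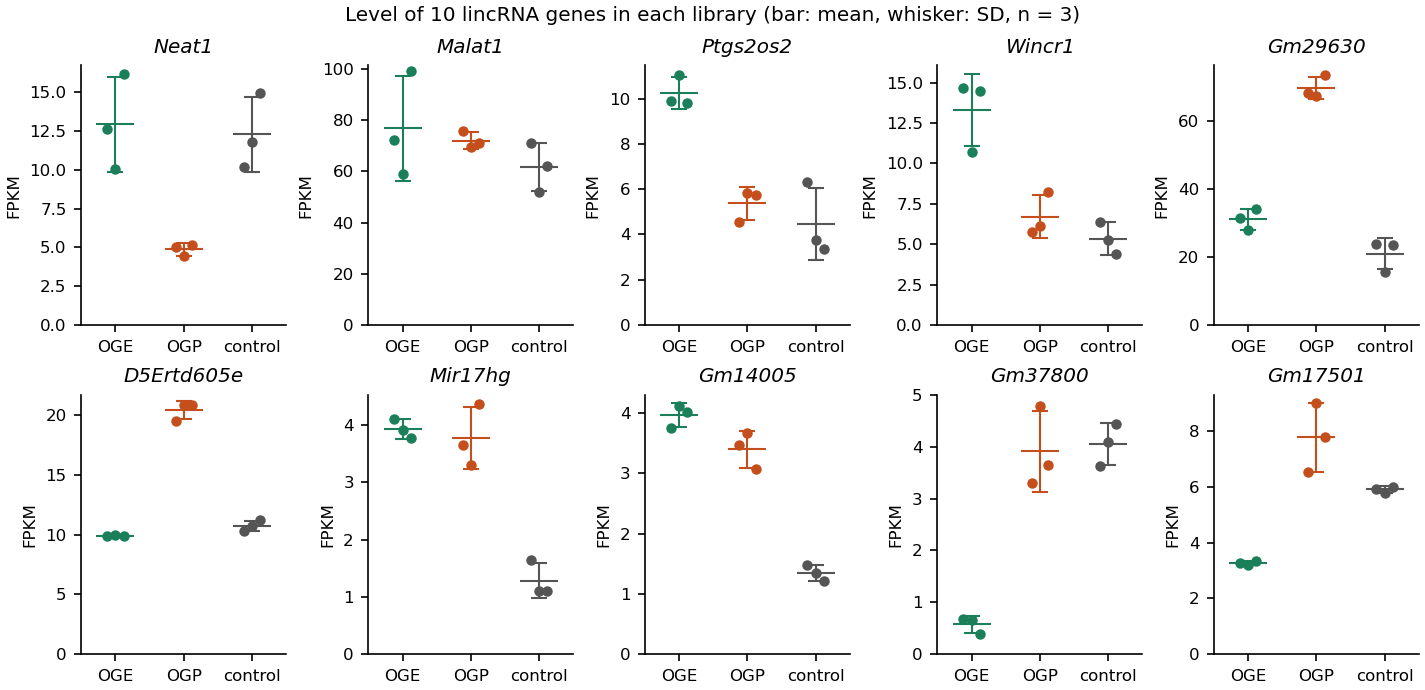
FPKM (vertical axes, each from 0) of 10 lincRNA genes in the 3 libraries of OGE, OGP and control cells (horizontal axes), with points for libraries, a bar for the mean and a whisker for the SD. Neat1 dips in OGP, Gm29630 and D5Ertd605e peak there, Ptgs2os2 and Wincr1 are highest in OGE, Gm37800 and Gm17501 are lowest in OGE, Mir17hg and Gm14005 are lowest in control, and the 3 groups of Malat1 overlap.

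Against control, OGE cells had 27 DEGs among the 155, with 24 higher (15.5%) and 3 lower (1.94%) in OGE, beside 11.5% of all genes tested, 5.14% higher and 6.33% lower. The median log2 fold change was 0.25, beside 0.00 over all genes. Of the 120 antisense genes that averaged 1 FPKM or more, 10.0% were higher and 3.33% lower in OGE, with a median log2 fold change of 0.18. Over the 141 genes chosen on the control libraries alone, 18 were higher and 7 lower. Without control replicate 1 the number of DEGs was 39 (34 higher and 5 lower). The groups did not overlap in 63 genes, 55 with OGE above and 8 below, against 18.6% and 19.6% of all genes. A set of 16 was higher than control in OGP and OGE alike and none of them was a DEG between OGE and OGP: 2010300F17Rik, 4930461G14Rik, G930009F23Rik, Gm11884, Gm12415, Gm12648, Gm13073, Gm14005, Gm20005, Gm28187, Gm35019, Gm40723, Gm42047, Gm6634, Mir17hg and Platr22. These comparisons share the control libraries, so a low control value enters both. Gm11884, Gm12415, Gm28187, Gm35019, Gm40723 and 2010300F17Rik averaged under 1 FPKM in control. They met the limit only through the libraries after OGD, so the choice itself favours a rise in them. Gm12415 had the largest log2 fold change, with 1.752, 1.499 and 3.147 FPKM in OGE and 0.224, 0.230 and 0 FPKM in control, on 13 to 25 and 0 to 2 reads (1.99, adjusted p = 0.000577, limma), followed by Gm40723 (1.78), Gm12648 (1.61) and 2010300F17Rik (1.46). Gm42047 was the most abundant of the 16, at 40.8, 33.9 and 44.2 FPKM in OGE, 32.6, 28.0 and 31.9 FPKM in OGP and 22.6, 17.2 and 17.9 FPKM in control, without overlap between any groups. Another 5 were called in OGE against control alone, AL805899.1, AU020206, Gm17586, Gm19710 and Gm47814, of which all but AL805899.1 lost the call when some 1 library was left out. AU020206 had 27.2, 28.4 and 25.2 FPKM in OGE, 16.7, 18.1 and 21.4 FPKM in OGP and 20.9, 16.1 and 16.6 FPKM in control, and its OGE libraries lay above all others. It differed by 0.59 on the log2 scale in OGE against control (adjusted p = 0.00798, limma) and, short of the fold threshold, 0.52 in OGE against OGP (adjusted p = 0.0175). 3300005D01Rik had 29.2, 29.9 and 28.7 FPKM in OGE, 21.8, 23.6 and 25.4 FPKM in OGP and 22.0, 23.6 and 17.97 FPKM in control, and was short of the fold threshold too (0.47 in OGE against control, adjusted p = 0.0112). AL805899.1, which holds miR-31, had 21.9, 23.6 and 20.5 FPKM in OGE, 16.3, 19.2 and 17.2 FPKM in OGP and 15.0, 10.7 and 12.2 FPKM in control (log2 fold change 0.78, adjusted p = 0.00176, limma).

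**Figure D4:**
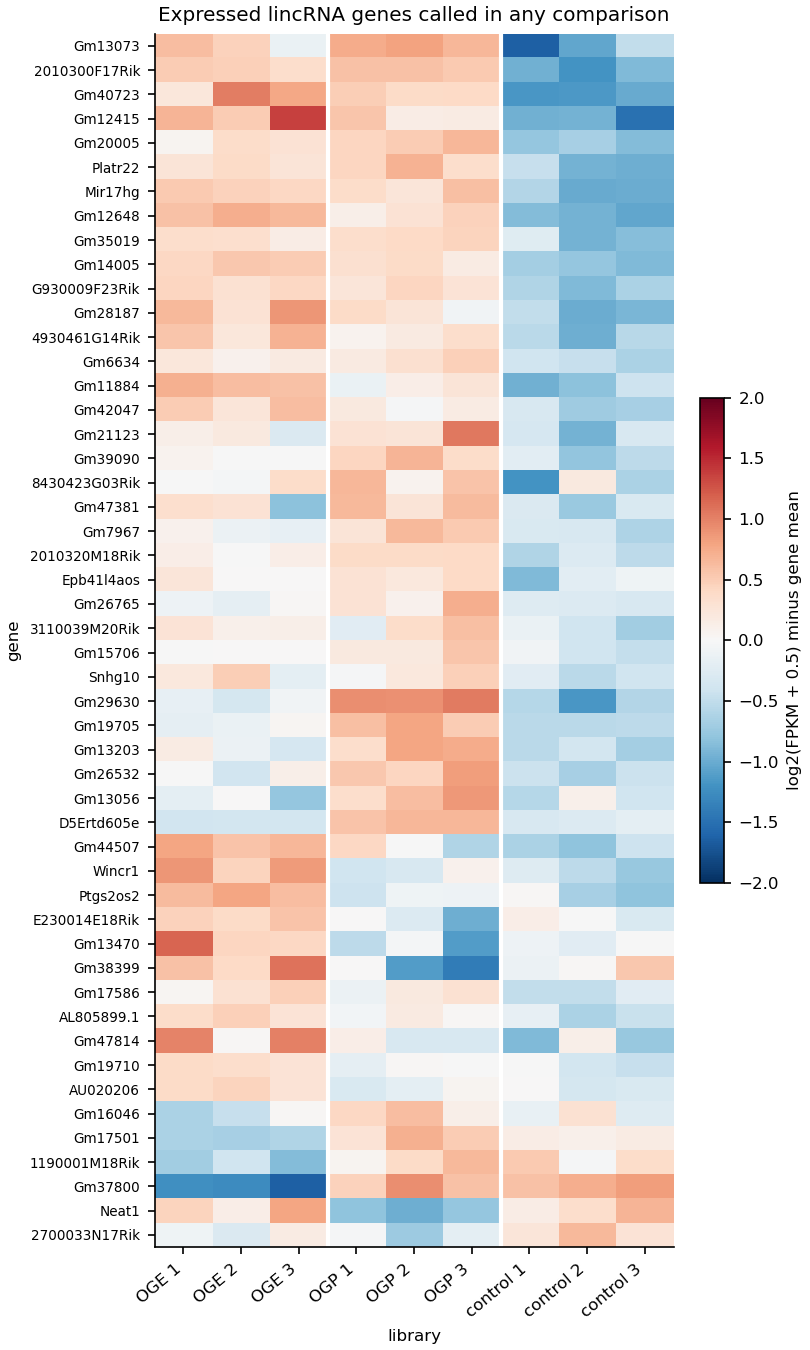
Heatmap of the 50 lincRNA genes (rows) that were DEGs in any comparison, in the 9 libraries (columns), coloured by log2(FPKM + 0.5) minus the mean of the gene, red above and blue below. The upper 16 rows are mostly red in OGE and OGP and blue in control, the 6 rows from Gm29630 to D5Ertd605e are reddest in OGP, and Gm37800 is bluest in OGE.

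The calls were set beside those of the nearest protein-coding gene. Of the DEGs among the 155, in OGP against control 23 had a tested neighbour, and the neighbour was a DEG in the same direction for 1 (Gm47381, whose call was lost without OGP replicate 1 or 2, among others, and Atg10) and in the opposite direction for 1 (Gm14005 and Bcl2l11), where 1322 of 11003 protein-coding genes tested were DEGs. Within 10 kb it was 0 of 13. In OGE against OGP it was 5 of 13 in the same direction and 0 in the opposite, where 920 of the 11003 were DEGs, and within 10 kb 3 of 7. In OGE against control it was 4 of 19 in the same direction and 0 in the opposite, where 1280 were DEGs.

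The 5 pairs in OGE against OGP were Gm17501 and Cyr61, 1190001M18Rik and Slfn9, Gm38399 and Nav1, Gm37800 and Hlx, and Gm13470 and Zeb2, the last 2 at 97667 and 1302140 bases and chosen after their values were seen. Cyr61, which encodes a secreted matrix-associated growth regulator, lies 331 bases from Gm17501 on the opposite strand. It had 82.8, 79.8 and 72.0 FPKM in OGE, 400.5, 406.8 and 421.0 FPKM in OGP and 345.4, 441.0 and 353.8 FPKM in control. Like Gm17501 it was lowest in the 3 OGE libraries, at -2.38 on the log2 scale (SE 0.11, adjusted p = 2.76e-06, limma) in OGE against OGP. Nav1, which encodes a neuron navigator protein, overlaps Gm38399 on the same strand, so their reads may be shared. RefSeq lists Gm38399 as a synonym of Nav1, so this pair may be a single gene set beside itself. It is among the 5 of 13 pairs above and the 3 of 7 within 10 kb. Nav1 had a log2 fold change of 0.84 beside 1.52 for Gm38399. Slfn9, a gene of the interferon-related Schlafen family 2805 bases from 1190001M18Rik on the same strand, had -0.75 beside -1.01.

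Gm14005, which RefSeq names Morrbid and which is known to repress the neighbouring pro-apoptotic gene Bcl2l11 in mouse myeloid cells, was singled out with that neighbour after their values were seen. Gm14005 had 3.75, 4.12 and 4.02 FPKM in OGE, 3.46, 3.66 and 3.06 FPKM in OGP and 1.48, 1.35 and 1.22 FPKM in control. All 6 libraries after OGD lay above the control libraries, with log2 fold changes of 1.08 (SE 0.10, adjusted p = 0.000113, limma) in OGP against control and 0.20 (adjusted p = 0.188) in OGE against OGP. Bcl2l11, 15772 bases away on the opposite strand, had 4.98, 5.44 and 4.50 FPKM in OGE, 2.84, 3.17 and 3.13 FPKM in OGP and 6.10, 5.05 and 5.49 FPKM in control. It was lowest in the 3 OGP libraries, and OGE and control overlapped. Its log2 fold change was -0.77 (SE 0.10, adjusted p = 0.000641, limma) in OGP against control and 0.62 (adjusted p = 0.00256) in OGE against OGP, so that in OGE cells Gm14005 was high and Bcl2l11 was not low. A relation between the levels of the 2 genes was not tested.

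**Figure D5:**
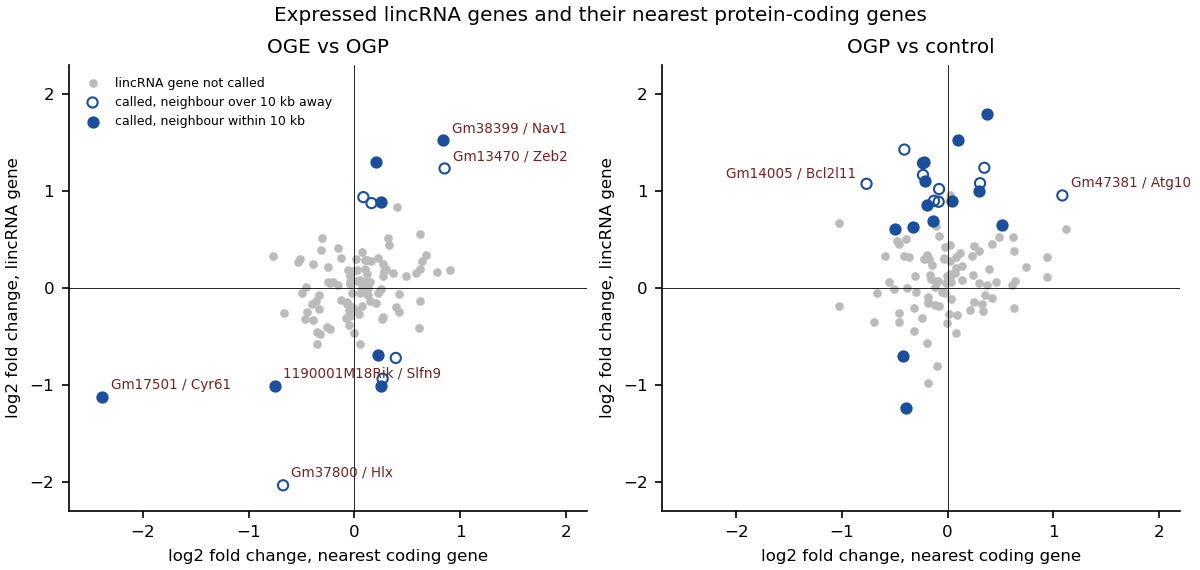
Log2 fold change of lincRNA genes (vertical axis) against that of the nearest protein-coding gene (horizontal axis) for the 111 pairs in which both were tested, in OGE against OGP and in OGP against control, with filled points for lincRNA DEGs with a neighbour within 10 kb and open points for those with one farther away. Named are pairs in which both genes were DEGs. On the left 5 are in the same direction, among them Gm38399 and Nav1, which are names of the same gene in RefSeq. On the right 1 is in the same and 1 in the opposite direction.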

How the data were processed

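Libraries of HT22 cells (OGE, OGP and control, 3 each) were made from poly-T selected RNA. Per the methods, adapter and low-quality reads were removed, HISAT2 2.0.5 was the aligner (mm10 in the submitters' notes) and featureCounts the counter. The unit of the deposited table is FPKM; no source used here names the tool with which the authors scaled counts to it. Multiplying FPKM by gene length gave steps of whole reads in every library, within a tolerance of 0.1 reads, for 100% of values, and these steps supplied the depths.

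The log2(FPKM + 0.5) values of the 13245 genes with a mean of 0.5 FPKM or more were fitted with limma 3.58.1 (R 4.3.3; trended prior) across the 9 libraries, and Benjamini-Hochberg adjustment ran over all 13245. This scale understates the fold of low genes. The code was tested on simulated data. Annotation came from GENCODE M21 and RefSeq GRCm38.p6, and near-identical copies (at least 95% identity over 90% of the transcript) from BLAST 2.17.0.

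The members and lists were chosen with earlier results of these data known. Named genes are the 10 with most FPKM, the DEGs with the largest changes in each direction and comparison, the listed genes and those nearest the limit; others stand in their pattern. Alternatives were other pseudocounts, filters, fold thresholds, scalings, a robust prior, library sets, membership limits, a replicate block and voom on the recovered reads.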

Additional observations from a re-analysis of the deposited data

How the results depend on the processing

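With a fold threshold of 2 the lincRNA DEGs of OGP against control numbered 18 and those of OGE against OGP 8, and with none 26 in OGE against OGP. With all 262 lincRNA genes that average 0.5 FPKM or more, 28 were DEGs in OGE against OGP and 47 in OGE against control. Leaving out 1 library at a time gave 29 to 41 DEGs in OGP against control, 11 to 18 in OGE against OGP (11 without OGP replicate 3) and 25 to 39 in OGE against control (39 without control replicate 1). Over 62 lincRNA genes (the DEGs, the most abundant and the listed ones) no call reversed in any of 22 alternatives, and 18 of 35, 6 of 17 and 18 of 27 DEGs kept their calls in all of them, in OGP against control, OGE against OGP and OGE against control. Replicate numbers did not pair the libraries (correlations of same-numbered deviations of -0.18 to 0.32). With them as a replicate block the counts, in the same order, were 31, 16 and 27. At 15026700 to 19476806 reads in genes per library, genes near 1 FPKM rest on few reads.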
